A study of Homo sapiens with 21 samples.

Results

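The 10 genes NLRP3, NLRC4, NLRP1, MEFV, NAIP, CASP1, PYCARD, GSDMD, NOD1 and NOD2 were read in THP1 cells in which IRF2BP2 had been knocked down or ATF7 or JDP2 knocked out. They were taken by symbol as a functional family, 10 of the 20423 genes in the deposited table. The family was chosen with earlier results of these data known. THP1 is an established human monocytic line derived from an acute myeloid leukemia. The question set by the series is how the transcriptional cofactor IRF2BP2 and the ATF7/JDP2 pair of leucine zipper factors act on inflammatory genes in these cells.

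The knockdown arm held 3 libraries of IRF2BP2 shRNA 1, 3 of IRF2BP2 shRNA 2 and 2 of shRNA control, with the hairpins carried by the pLKO.1 lentiviral vector. The knockout arm had 2 ATF7 knockout clones and 2 JDP2 knockout clones with 2 libraries each, and 2 libraries of a knockout control. Knockouts were made with Lenti-CRISPRv2 constructs and each clone was grown from a single cell, so a clone is 1 line and may differ from the control by its founder cell as well as by the edit. The labels do not say what construct the controls carried or whether the knockout control was clonal. A single wild-type library is counted with shRNA control and knockout control as the 5 controls, which enter descriptions and, as an alternative, tests; the main tests use the control of the same arm. The labels give no stimulus to any group, so the levels are read as those of cells without one. The labels do not say that replicates were separate cultures. All p-values therefore rest on spread from library to library, and that spread may be technical. Tests of a knockout or of the knockdown as 1 group had no term for clone or hairpin. Libraries of the same clone or hairpin thus enter them as separate replicates.

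Inflammasomes are cytosolic complexes that sense microbial products or cell damage and activate the protease caspase-1. A sensor (NLRP3, NLRP1, MEFV, or NAIP together with NLRC4) recruits pro-caspase-1, in many cases through the adaptor ASC, the product of PYCARD. Caspase-1 (CASP1) matures interleukin-1 beta and interleukin-18 and cleaves gasdermin D (GSDMD), which forms pores in the plasma membrane. NOD1 and NOD2 are related cytosolic receptors for fragments of bacterial peptidoglycan, and they signal through the kinase RIPK2 to NF-kB instead of to caspase-1. In macrophages the amount of NLRP3 message is known as a limiting step that inflammatory signals raise before the complex assembles.

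The targeted genes were read first. IRF2BP2 had normalized counts of 16973 and 18382 in shRNA control, 9456, 11110 and 9802 with shRNA 1, and 12587, 16649 and 25651 with shRNA 2. The library labelled shRNA 2 replicate 3 therefore goes against its label at the message level. The knockdown calls were also computed without it. Replicate 2 of shRNA 2, at 16649, lay within the range of all controls (14859 to 21364). IRF2BP2 message was thus clearly lower in every shRNA 1 library, but with shRNA 2 only in replicate 1. Knockdown is used below as the label of both hairpins, not as a measured loss of IRF2BP2 message in each library. ATF7 was 363 to 645 in its knockout against 300 and 537 in knockout control, and JDP2 was 3158 to 5693 against 3438 and 5085. Message level does not check a CRISPR edit. The 19 libraries held 28.7 to 60.2 M reads in genes. In 3 of them many genes were over 2-fold away from the 19-library median, 48.5 percent of genes in shRNA 1 replicate 3, 38.2 percent in JDP2 clone 1 replicate 2 and 25.6 percent in shRNA 2 replicate 3, against at most 14.8 percent elsewhere. In shRNA 1 replicate 3 and JDP2 clone 1 replicate 2 the departures followed GC content, the share of G and C bases in a gene's longest protein-coding transcript (r across 12625 genes of -0.475 and 0.456, and -0.397 to 0.312 in the other libraries). The tenth of genes richest in GC had a median log2 deviation of 1.52 in JDP2 clone 1 replicate 2 and -1.32 in shRNA 1 replicate 3. Knockout control replicate 2, a control library of every knockout comparison, had the r of -0.397 and a median of -0.641. The 12 monocytic markers summed to 53390 to 118700 in the controls, and each of the T cell, epithelial, erythroid and stromal lists to at most 764.5 in any library. The B cell list reached 2298, also in a control. CD3D and CD3G of the T cell list had at most 3 reads in every control. In bulk RNA a change in the cells that carry a gene and a change in message per cell cannot be told apart.

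Promoter sequence is shown for NLRP3, NLRC4, MEFV and NOD2, the 4 members the results turn on, chosen after their values were seen. IRF2BP2, ATF7 and JDP2 act at regulatory DNA. On GRCh38 (GENCODE 29), NLRP3 lies on chromosome 1 from 247416156 to 247449108, NLRC4 on chromosome 2 from 32224453 to 32265854, MEFV on chromosome 16 from 3242028 to 3256627 and NOD2 on chromosome 16 from 50693588 to 50734041. RefSeq (GRCh38.p14) promoter entries were read for 6 of the 10 members. The windows run from up to 250 bases before a gene start to the base before it, cut to bases outside annotated exons. They are written 5′ to 3′ on the gene's strand in lower case, with a motif match in capitals. The windows lie at chr1:247415923-247416155 (plus strand) for NLRP3, chr2:32264887-32265136 (minus strand, the third listed start) for NLRC4, chr16:3256634-3256883 (minus strand) for MEFV and chr16:50696698-50696947 (plus strand, the first listed start) for NOD2.
NLRP3: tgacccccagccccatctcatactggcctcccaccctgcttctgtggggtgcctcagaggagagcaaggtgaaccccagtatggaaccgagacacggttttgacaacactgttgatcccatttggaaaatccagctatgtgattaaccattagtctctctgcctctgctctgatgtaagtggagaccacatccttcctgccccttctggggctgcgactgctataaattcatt
NLRC4: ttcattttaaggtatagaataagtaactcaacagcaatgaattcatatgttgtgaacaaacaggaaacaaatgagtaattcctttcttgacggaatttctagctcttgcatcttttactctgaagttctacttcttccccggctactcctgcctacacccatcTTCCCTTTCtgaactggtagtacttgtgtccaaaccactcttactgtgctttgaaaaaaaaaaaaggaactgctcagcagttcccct
MEFV: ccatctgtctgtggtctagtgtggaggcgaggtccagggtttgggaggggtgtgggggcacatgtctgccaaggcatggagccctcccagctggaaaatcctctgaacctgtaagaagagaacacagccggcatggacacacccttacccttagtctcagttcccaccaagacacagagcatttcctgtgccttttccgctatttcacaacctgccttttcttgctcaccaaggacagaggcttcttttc
NOD2: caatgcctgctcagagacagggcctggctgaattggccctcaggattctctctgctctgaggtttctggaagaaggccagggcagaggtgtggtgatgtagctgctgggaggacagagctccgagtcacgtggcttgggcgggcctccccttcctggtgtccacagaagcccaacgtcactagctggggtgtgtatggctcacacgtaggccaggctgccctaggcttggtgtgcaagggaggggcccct

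Each window was searched on both strands for TGACGTCA (the CRE site bound by the ATF family), TGANTCA (AP-1), GAAANNGAA (interferon regulatory factors), TTCNNNGAA (STAT), GGAAGTG (ETS) and GGGNNTTCC (NF-kB). The letters in capitals in the NLRC4 sequence are the minus-strand match to the interferon regulatory factor motif, 87 bases before that start. It was the sole match in the 4 windows shown. Of 27305 RefSeq promoters, 7.06 percent held that motif in the 250 bases before the start, 1.77 percent the CRE site and 6.6 percent the AP-1 site. Of the 3 starts listed for NLRC4, the one shown has the longest window and the sole match; the other windows, cut to 139 and 16 bases, held none. Of the 2 listed for NOD2, neither window held a match. The absence of these letters says nothing of binding elsewhere at the genes.

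Read per kilobase of exon (GENCODE 29 exons) in the 5 controls, the adaptor and the pore-former stood far above the sensors. Median normalized counts per kilobase were 3750 for PYCARD and 1010 for GSDMD, then 176 for NOD1 and 160 for NLRP3. CASP1 followed at 33.4, NOD2 at 20.6, NLRP1 at 18.6, NLRC4 at 11.7 and MEFV at 10.8. NOD1 and NLRP3 overlapped between libraries (162 to 187 and 146 to 174), as did NOD2 and NLRP1 (19.4 to 22.2 and 11 to 23.6), and NLRC4 and MEFV (5.1 to 13.1 and 6.83 to 18.7). CASP1 (25.0 to 56.8) did not overlap the gene on either side of it. NAIP was next to undetected: 11 of 19 libraries had no read and none had more than 4. NAIP, the receptor that hands flagellin and secretion-system proteins to NLRC4, lies in a region of near-identical copies on chromosome 5, where counting can drop shared reads, so it is uncertain and was not tested. The other 9 members passed the filter of a mean normalized count of at least 10 in every comparison.

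**Figure D1:**
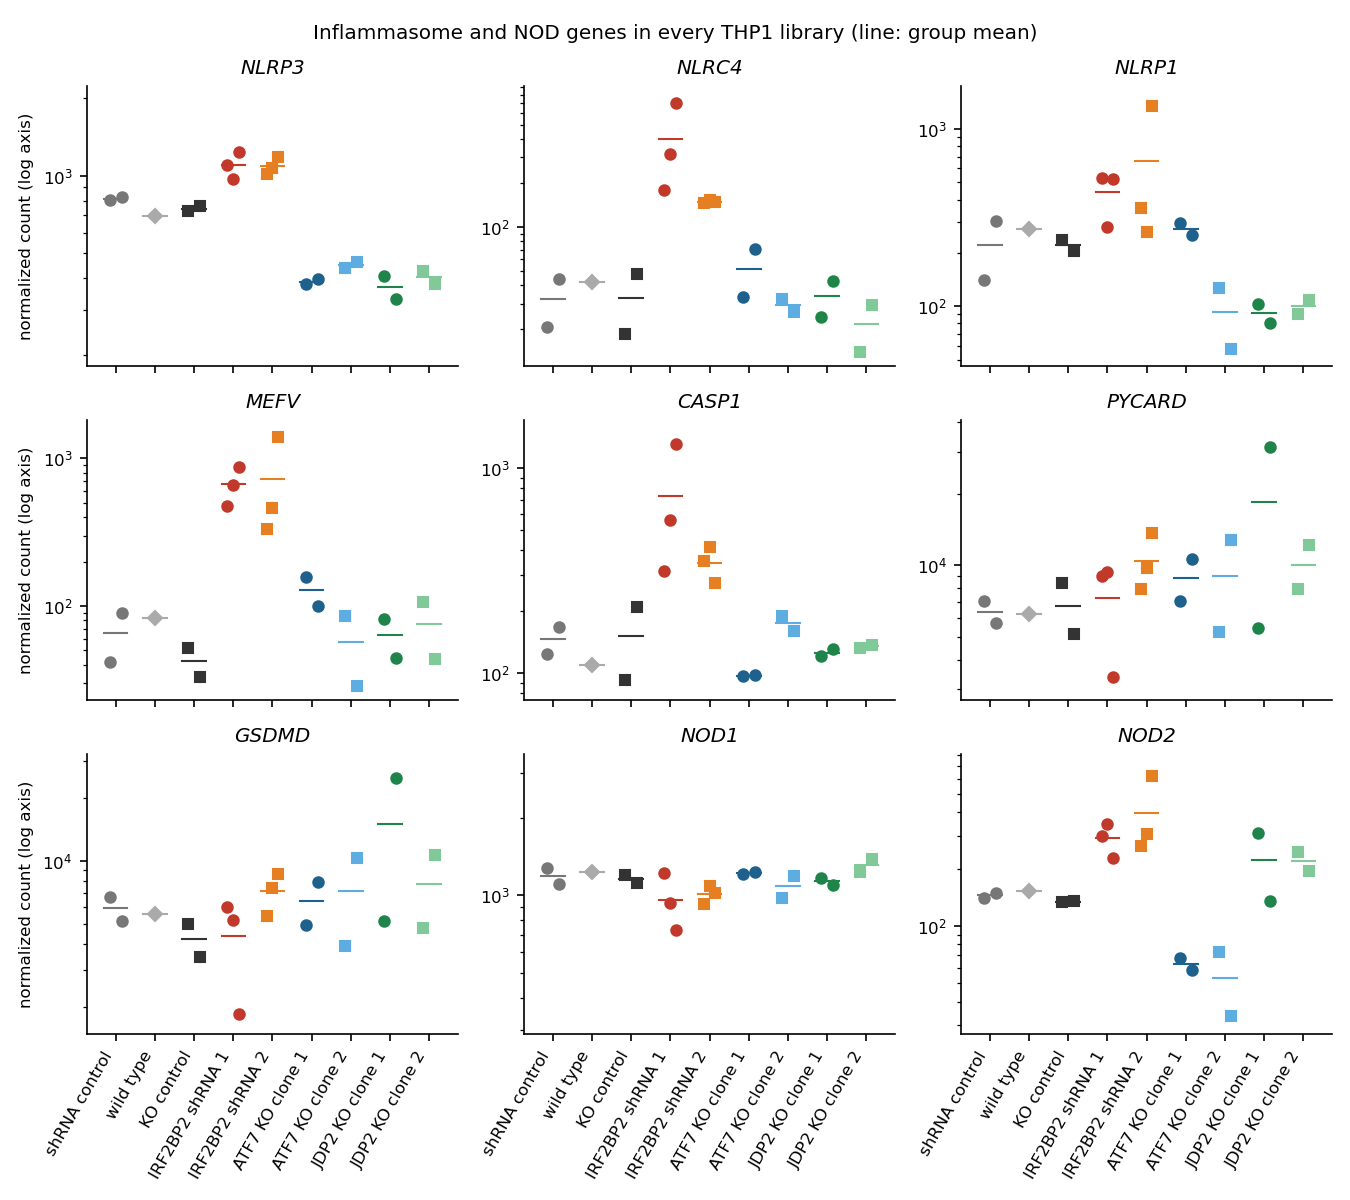
Normalized counts (log axes) of the 9 tested members in each of 19 libraries, by group; each point is a library and each line a group mean. NLRP3 lies between 971 and 1231 in the 6 knockdown libraries, 694 and 826 in the 5 controls and 330 and 462 in the 8 knockout libraries, while PYCARD and GSDMD spread widely inside groups.

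The libraries labelled IRF2BP2 knockdown had higher messages of 2 inflammasome sensors. MEFV rose by 3.32 ± 0.50 (SE) on the log2 scale and NLRC4 by 2.85 ± 0.58, in 6 knockdown against 2 shRNA control libraries. Both were called by limma at an adjusted p under 0.05, which makes 2 of 9 tested members higher and 0 lower, against 1.54 percent of all 12738 genes called higher. The median log2 difference of the 9 members was 1.16, beside -0.0285 for all genes, and 7 of 9 were positive.

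MEFV encodes pyrin, an inflammasome sensor that is mutated in familial Mediterranean fever. Its normalized counts were 41.8 and 90.0 in shRNA control, 475, 658 and 874 with shRNA 1, and 333, 459 and 1397 with shRNA 2. Every knockdown library was at least 333 and every one of the other 13 libraries at most 156, so the groups did not overlap. The adjusted p was 0.00562. It was lost without shRNA control replicate 1 (log2 difference 2.78, adjusted p = 0.185), which leaves the higher of the 2 controls. Without shRNA 2 replicate 3 it held (3.09, adjusted p = 0.00613).

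NLRC4 assembles the inflammasome that answers to bacterial flagellin and secretion systems. Its counts were 20.9 and 44.0 in shRNA control, 179, 315 and 706 with shRNA 1, and 145, 153 and 147 with shRNA 2. The lowest knockdown library stood above the highest of all other libraries, 70.5. The adjusted p was 0.0279. Leaving out shRNA control replicate 1, shRNA control replicate 3 or shRNA 1 replicate 2 ended the call, with adjusted p of 0.479, 0.0939 and 0.0644 and log2 differences of 2.33, 3.37 and 2.75. It also ended in edgeR (adjusted p = 0.0930), with libraries scaled to equal totals (adjusted p = 0.0608) and with the replicate number as a block (adjusted p = 0.0547). Without shRNA 2 replicate 3 it held (2.97, adjusted p = 0.0381). With each gene's own variance, neither MEFV (adjusted p = 0.152) nor NLRC4 (adjusted p = 0.217) was called.

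CASP1, the effector protease, had counts of 123 and 169 in shRNA control, 316, 556 and 1319 with shRNA 1, and 352, 410 and 276 with shRNA 2. Again no knockdown library fell within the controls, whose highest value over all 5 was 210. The log2 difference of 1.66 ± 0.50 did not pass in limma (adjusted p = 0.142) or edgeR (adjusted p = 0.187). DESeq2 called it (1.88, adjusted p = 0.0185), with NLRC4 and MEFV, beside 5.35 percent of all genes. The highest value belongs to shRNA 1 replicate 3, the library low in GC-rich messages, and CASP1 has a GC content of 41.0 percent, higher than that of 17.7 percent of genes. NLRC4, at 45.3 percent GC, was also highest in that library. Without that library CASP1 passed the threshold (adjusted p = 0.031) and 3 members were called, NLRC4, CASP1 and MEFV, beside 4.92 percent of all genes.

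NOD2, the receptor for muramyl dipeptide, had counts of 141 and 150 in shRNA control, 300, 345 and 230 with shRNA 1, and 265, 305 and 620 with shRNA 2. All 6 knockdown values were above the highest control of 153. The log2 difference was 1.16 ± 0.37 with an adjusted p of 0.159. NLRP1, a sensor cleaved by pathogen proteases, had counts of 141 and 303 in shRNA control, 529, 281 and 522 with shRNA 1, and 360, 264 and 1347 with shRNA 2. The ranges overlapped, and the log2 difference of 1.16 ± 0.55 did not pass (adjusted p = 0.370).

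NLRP3, the sensor of potassium loss and membrane damage, differed less than these and scattered little. Its counts were 802 and 826 in shRNA control, 1097, 971 and 1231 with shRNA 1, and 1019, 1072 and 1177 with shRNA 2. All 6 knockdown libraries exceeded both controls, by a mean of 0.42 on the log2 scale. The moderated standard error was 0.26 and the adjusted p 0.514. NLRP3's own standard error in the same comparison was 0.0954. The moderated one is larger because limma draws each gene's variance toward that of genes at its level. With its own variance the adjusted p was 0.191. PYCARD (0.37 ± 0.46), GSDMD (-0.18 ± 0.49) and NOD1 (-0.28 ± 0.28) had log2 differences no larger than their standard errors, and knockdown and control libraries overlapped for each.

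Each hairpin was also read alone against the 2 control libraries, which both comparisons share. IRF2BP2 message was clearly lower in all shRNA 1 libraries, but only in replicate 1 of shRNA 2. Among knockdown libraries, MEFV, NLRP1, NOD2, PYCARD and GSDMD were highest in shRNA 2 replicate 3, which had the most IRF2BP2 message. NLRP3, NLRC4 and CASP1 were highest in shRNA 1 replicate 3, and NOD1 in shRNA 1 replicate 1. With shRNA 1, MEFV (3.38 ± 0.56) and NLRC4 (3.45 ± 0.54) were called, beside 1.05 percent of all genes called higher. With shRNA 2, MEFV was called (3.26 ± 0.56), beside 1.3 percent, and NLRC4 at 2.25 ± 0.54 had an adjusted p of 0.0671. The hairpins differed in 0 members (limma, 0.0 percent of all genes, with 917 genes, 7.2 percent, at an unadjusted p under 0.05), also 0 by edgeR and DESeq2, with 1 member, NLRC4, at an unadjusted p under 0.05. For NLRC4 the log2 difference, shRNA 2 minus shRNA 1, was -1.20 ± 0.48 (adjusted p = 0.589). Leaving out all 3 libraries that stand apart gave 4 called members, NLRC4, CASP1, MEFV and NOD2, beside 10.1 percent of all genes.

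**Figure D2:**
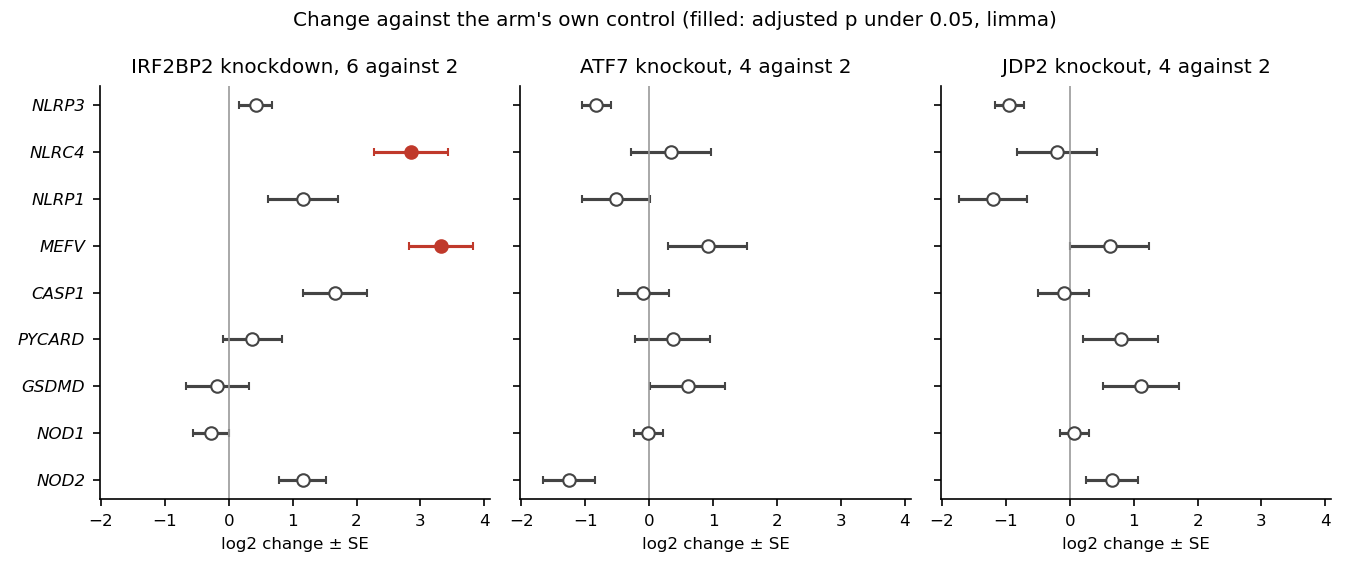
Log2 change ± SE of the 9 tested members against the control of the same arm, for 6 knockdown libraries against 2 and for 4 ATF7 or 4 JDP2 knockout libraries against 2. Filled points passed an adjusted p under 0.05 in limma, which are MEFV and NLRC4 in the knockdown; NLRP3 lies below 0 in both knockouts.

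With all 5 controls as the control group, 5 members were called higher in the knockdown, NLRP3, NLRC4, CASP1, MEFV and NOD2, but 12.3 percent of all genes were then called in either direction. The same 5 members had no overlap between the 6 knockdown and 5 control libraries, beside 11.5 percent of all genes. In that setting NLRP3 had a log2 difference of 0.52 and an adjusted p of 0.0422. In the authors' deposited table of knockdown over all controls, NLRP3 had a log2 fold change of 0.52 and an adjusted p of 0.00071. The authors' deposited table also had MEFV (3.02), NLRC4 (2.48), CASP1 (1.70), NOD2 (1.18) and NLRP1 (1.08) below an adjusted p of 0.05. Of the 13048 genes with an adjusted p in that table, 2279 were below 0.05.

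Markers of cell types were read beside these members. Of 12 monocytic markers, 5 (ITGAM, CSF1R, FCGR1A, FCER1G and TYROBP) were higher in all 6 knockdown libraries than in all 5 controls, and 0 were lower. Of all 12679 genes, 792 were higher in this way and 665 lower. The summed monocytic level was 69350 to 209500 in the knockdown, overlapping the controls. In the B cell list PAX5 was lower in all 6 knockdown libraries than in all 5 controls, and the summed level was 336.3 to 1958. Their part in the member differences was not tested.

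In the ATF7 and JDP2 knockouts NLRP3 was below all 5 controls in every library of both. NOD2 was below all 5 controls in the ATF7 libraries and above all 5 in 3 of the 4 JDP2 libraries. Both comparisons use the same 2 knockout control libraries, so their values are given side by side and not as independent results. limma called 0 of 9 members in the ATF7 knockout (0.25 percent of all genes called) and 0 of 9 in the JDP2 knockout (0.674 percent). At an unadjusted p under 0.05 there were 2 in each, NLRP3 and NOD2 for ATF7 (beside 7.09 percent of all genes), and NLRP3 and NLRP1 for JDP2 (beside 16.8 percent). edgeR called 0 members in each (0.25 and 0.924 percent of all genes). DESeq2 called NLRP3 alone in each, beside 1.69 percent of all genes for ATF7 and 4.06 percent for JDP2.

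NLRP3 counts were 726 and 760 in knockout control. They were 379 and 395 in ATF7 clone 1, 439 and 462 in clone 2, 407 and 330 in JDP2 clone 1, and 426 and 380 in JDP2 clone 2. All 8 knockout libraries lay below all 5 controls, whose lowest was 694. The log2 difference was -0.83 ± 0.23 for ATF7 (1.78-fold lower, adjusted p = 0.240) and -0.95 ± 0.23 for JDP2 (1.93-fold lower, adjusted p = 0.0994). With DESeq2 the adjusted p was 0.00918 and 0.00067, and with all 5 controls in limma 0.0750 and 0.00764. Of the 12 monocytic markers, CD33 was below all 5 controls in the ATF7 libraries, beside 4.72 percent of all genes apart in either direction. In the JDP2 libraries CD33 and CSF1R were below all 5 controls, and SPI1 and CEBPA above them, beside 14.0 percent of all genes. The summed monocytic level was 60180 to 103600 in the ATF7 and 77060 to 156300 in the JDP2 libraries, overlapping the controls. The part of these markers in the NLRP3 and NOD2 differences was not tested. Over the alternatives that kept every library, the NLRP3 log2 difference was -0.90 to -0.81 for ATF7 and -1.18 to -0.93 for JDP2. The -1.18 was with libraries scaled to equal totals, where the median of all genes was -0.224. In the authors' deposited tables of each knockout over controls, NLRP3 had log2 fold changes of -0.84 (adjusted p = 9.68e-06) and -0.95 (adjusted p = 5.56e-08). Of genes with an adjusted p there, 40 of 12687 were below 0.05 for ATF7 and 1489 of 12324 for JDP2.

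NLRP3 scattered little between replicates. Its within-group SD on the log2 scale was 0.121, and 0.123 percent of 13021 genes had a smaller one. NOD1 was next among the members at 0.194 (2.6 percent), while PYCARD and GSDMD were at 0.801 and 0.813. With its own variance in place of the moderated one, its standard error was 0.119 and the JDP2 difference passed (adjusted p = 0.0457), while the ATF7 difference had an adjusted p of 0.0667. NLRP3 log2 differences of clone 2 minus clone 1, with moderated standard errors, were 0.22 ± 0.27 for ATF7 and 0.14 ± 0.27 for JDP2. Neither passed in limma (adjusted p = 0.994 and 0.993). Its counts in ATF7 clone 1 (379 and 395) were nevertheless all below those in ATF7 clone 2 (439 and 462). The JDP2 clones overlapped. The direct difference between the knockouts, JDP2 minus ATF7, was -0.12 ± 0.19.

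Across the study NLRP3 took 3 ranges that did not overlap, 330 to 462 in the knockouts, 694 to 826 in the controls and 971 to 1231 in the knockdown. Of 13021 genes, 19 (0.146 percent) had knockouts and knockdown on opposite sides of the controls with no overlap, and 9 of these were highest in the knockdown. NLRP3 was the sole member among them. The effects were compared by testing their difference, each against the control of its own arm. Knockdown minus JDP2 knockout was 1.37 ± 0.31 on the log2 scale for NLRP3 (adjusted p = 0.0322), the single member called, beside 1.46 percent of all genes called higher. Knockdown minus ATF7 knockout was 1.25 ± 0.31 (adjusted p = 0.0750), with 0 members called by limma and 0 by edgeR, beside 0.337 percent of all genes in limma and 0.467 percent in edgeR. DESeq2 called 2, NLRP3 and NOD2, beside 2.76 percent of all genes. At an unadjusted p under 0.05 there were 5 members, beside 12.5 percent of all genes. The number of members called against JDP2 was 0 when either shRNA control, either knockout control or JDP2 clone 2 replicate 2 was left out, and 0 with equal totals.

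**Figure D3:**
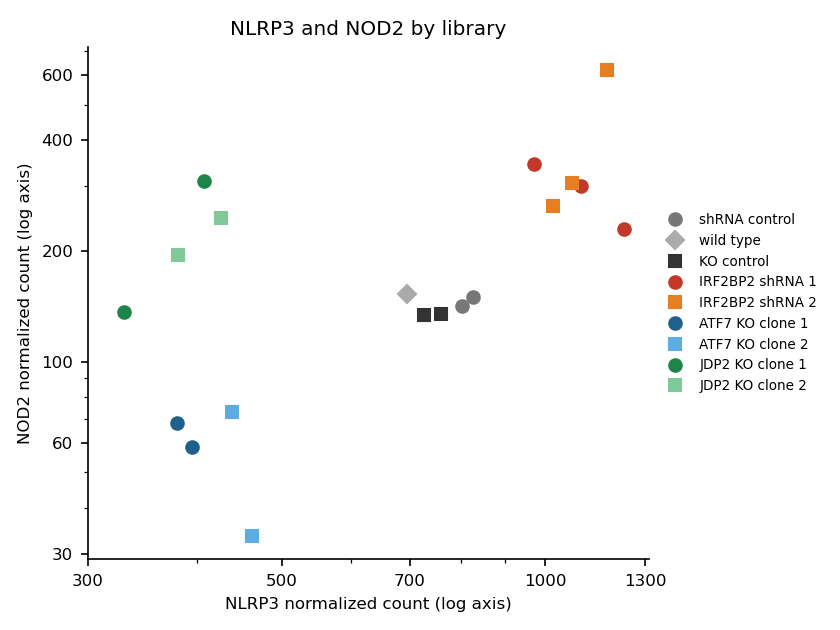
NLRP3 against NOD2 normalized counts (both log axes), one point per library, 19 libraries in 9 groups. The 4 ATF7 libraries (NOD2 33.6 to 72.9) sit below the 4 JDP2 libraries (136 to 310) at like NLRP3 levels, and the 6 knockdown libraries are high on both axes.

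NOD2 counts did not overlap between the knockouts. Its counts were 134 and 135 in knockout control, 67.9 and 58.6 in ATF7 clone 1, 72.9 and 33.6 in ATF7 clone 2, 310 and 136 in JDP2 clone 1, and 245 and 195 in JDP2 clone 2. No ATF7 library reached the lowest of the 5 controls, and no JDP2 library came down to the highest ATF7 library. In JDP2 clone 1 replicate 2, which stands apart, NOD2 lay within the range of the 5 controls (134 to 153). Against knockout control the log2 differences were -1.25 ± 0.41 for ATF7 (adjusted p = 0.380) and 0.65 ± 0.41 for JDP2 (adjusted p = 0.436). JDP2 minus ATF7 was 1.90 ± 0.33 on the log2 scale, 3.74-fold, and ranked first by p among the 13208 genes tested. It did not pass adjustment over all genes (adjusted p = 0.730), where limma called 0 genes (0.0 percent) and 289 (2.19 percent) had an unadjusted p under 0.05. NOD2 was the 1 member of these 289. edgeR called 0 members there, and DESeq2 called NOD2, beside 0.0681 percent of all genes.

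Between JDP2 and ATF7 libraries, NOD2 was the 1 member with no overlap, beside 2.37 percent of all genes. Against all 5 controls the members apart were NLRP3 and NOD2 (both lower) in the ATF7 knockout, beside 4.72 percent of genes. In the JDP2 knockout they were NLRP3 and NLRP1 (both lower), beside 14.0 percent. With all 5 controls in limma, 0 members were called for ATF7 (0.0231 percent of genes) and NLRP3 for JDP2 (7.08 percent). In the authors' deposited tables NOD2 had a log2 fold change of -1.12 in the ATF7 knockout (adjusted p = 0.0342) and 0.58 in the JDP2 knockout (adjusted p = 0.161).

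NLRP1 was low in both JDP2 clones and in 1 of the 2 ATF7 clones. Its counts were 238 and 205 in knockout control, 295 and 253 in ATF7 clone 1, 127 and 57.6 in ATF7 clone 2, 103 and 80.2 in JDP2 clone 1, and 90.9 and 109 in JDP2 clone 2. The JDP2 libraries were all below the controls, with a log2 difference of -1.21 ± 0.53 (adjusted p = 0.286). ATF7 clone 1 lay among the controls and clone 2 below them, a difference of -1.66 ± 0.42 (adjusted p = 0.209). limma called 0 members between ATF7 clones (0.303 percent of all genes), with NLRP1 alone at an unadjusted p under 0.05 (6.62 percent of all genes). It called 0 between JDP2 clones (0.136 percent), with 0 at an unadjusted p under 0.05 (2.48 percent), and edgeR and DESeq2 called 0 in both.

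MEFV and NLRC4, the members that rose in the knockdown, had knockout levels that overlapped those of the controls. MEFV counts were 28.8 to 156 over the 8 knockout libraries against 32.9 to 90.0 in the 5 controls, and NLRC4 counts 14.1 to 70.5 against 18.5 to 47.4. CASP1 was 97.0 to 191 in the knockouts and 92.4 to 210 in the controls. The log2 differences of MEFV were 0.91 ± 0.62 for ATF7 and 0.62 ± 0.62 for JDP2, and neither passed. NOD1, which senses a peptidoglycan fragment common in Gram-negative bacteria, was the other member with little scatter: 1106 to 1274 in the controls, 980 to 1385 in the knockouts and 737 to 1219 in the knockdown. Its log2 differences were -0.01 ± 0.22 for ATF7 and 0.07 ± 0.22 for JDP2. PYCARD overlaps the antisense gene PYCARD-AS1, and NOD1 and NOD2 also overlap genes on the other strand. NLRP1 shares its locus with another annotated gene. Whether counting used strand is not given in the sources used here, and reads of such partners cannot be told apart.

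PYCARD and GSDMD, the adaptor and the pore-former, varied widely between replicates of a group. PYCARD counts were 5456 and 31462 in JDP2 clone 1, 5223 and 12832 in ATF7 clone 2, and 9014, 9368 and 3376 with shRNA 1. GSDMD counts were 5160 and 24810, 3912 and 10362, and 6016, 5199 and 1855 in the same libraries. The pair moved together: after removing group means their log2 values had a Pearson r of 0.977 over 19 libraries (10 residual degrees of freedom). Their transcripts are rich in GC, at 61.7 and 64.6 percent, above 87.3 and 94.4 percent of genes, and both were highest in the library where GC-rich genes were highest and lowest in the library where those were lowest. Knockout control replicate 2, where the median log2 deviation of the tenth of genes richest in GC was -0.641, had the lowest counts of the controls (5109 and 3478). The part of GC content in these values was not tested. The log2 differences for JDP2 were 0.79 ± 0.58 for PYCARD and 1.11 ± 0.59 for GSDMD (adjusted p = 0.517 and 0.357). Without JDP2 clone 1 replicate 2 they were 0.30 and 0.62, and without knockout control replicate 2 they were 0.44 and 0.85. The authors' deposited table for JDP2 over controls had PYCARD at 0.95 with an adjusted p of 0.0461 and GSDMD at 0.93 with 0.0599. Of the 12324 genes with an adjusted p in that table, 1489 were below 0.05.

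**Figure D4:**
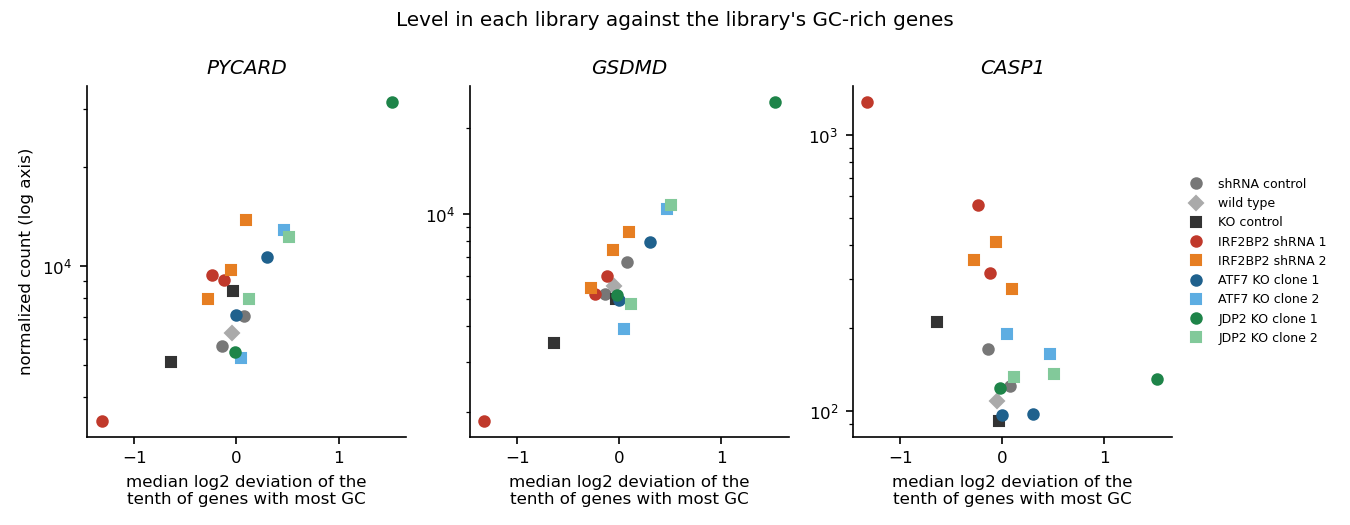
Normalized count (log axis) of PYCARD, GSDMD and CASP1 in each of 19 libraries against the median log2 deviation of the tenth of genes richest in GC in that library (x axis, from the 19-library median). JDP2 clone 1 replicate 2, at 1.52, has the highest PYCARD and GSDMD, and shRNA 1 replicate 3, at -1.32, the lowest of both and the highest CASP1.

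Other pairs of members were correlated inside groups, as a description over the same 19 libraries, which share depth and GC differences. Those with the largest r in size, of 36 pairs, are given. NLRC4 and CASP1 had an r of 0.819, MEFV and NOD2 0.763, and NLRP1 and MEFV 0.735. CASP1 and NOD1 moved in opposite directions, at -0.796. Libraries that stand apart hold the highest NLRC4 and CASP1 (706 and 1319, shRNA 1 replicate 3) and the highest MEFV and NOD2 (1397 and 620, shRNA 2 replicate 3). Over all 19 libraries, group differences included, the genes most like NLRC4 were PLIN2 (r = 0.965), HACD4 (0.956) and IFI16 (0.953). Those most like MEFV were ZFP36L1 (0.965), C5AR1 (0.962) and CCR1 (0.957). C5AR1, the receptor for complement fragment C5a, had counts of 2540 to 26200 in the knockdown and 62.8 to 567 elsewhere, so the gap between knockdown and other libraries enters these correlations.

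The other genes of the pathways were read from 4 lists with 59 genes, of which 41 were tested in the knockdown and 39 in the knockouts. In the knockdown 4 rose and 0 fell, beside 1.54 percent of all genes called higher and 0.251 percent called lower. They were the DNA sensors AIM2 (3.61 ± 0.66, adjusted p = 0.0161) and IFI16 (2.69 ± 0.44, adjusted p = 0.00831), and the guanylate-binding proteins GBP2 (3.40 ± 0.66, adjusted p = 0.0227) and GBP1 (adjusted p = 0.0304), which coat intracellular bacteria. AIM2 counts were 48.3 to 333 in the knockdown (median 66.7) and 5.62 to 9.54 in the 5 controls. IFI16 counts were 3651 to 12720 (median 5014) against 714 to 1096. Neither gene's knockdown libraries overlapped the controls. GBP1 had no read in either shRNA control library, so its mean of 76.4 was at least 26.4-fold higher than a floor of 3 reads per library. However, shRNA 1 replicate 1 had 4.59 and the wild-type library 4.24. The shRNA control means of AIM2 and GBP1 (5.8 and 0) were under the filter of 10, which both passed through the knockdown libraries. They could therefore enter this test only with a higher mean in the knockdown.

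By list, 2 of 15 tested inflammasome genes rose, 2 of 9 gasdermin, caspase and cytokine genes, 0 of 13 NOD signalling genes and 0 of 4 other NLR genes. Of all genes tested, 1.54 percent were called higher. The first count includes AIM2 and the second GBP1, which passed the filter through the knockdown libraries. The median log2 differences were 0.62, 0.79, 0.28 and -0.25, beside -0.0285 for all genes. At an unadjusted p under 0.05 there were 15 of the 41, 14 of them positive, beside 14.0 percent of all genes in either direction. IL1B, a caspase-1 substrate, had a log2 difference of 1.73 ± 0.62 (adjusted p = 0.220), and IL18, another, 0.34 ± 0.54. CASP4, the sensor of cytosolic lipopolysaccharide, had 0.98 ± 0.40 (adjusted p = 0.289). RIPK2, the kinase downstream of NOD1 and NOD2, had -0.09 ± 0.30. The NOD signalling genes with the highest levels, TAB1 and XIAP, had -0.62 ± 0.47 and 0.69 ± 0.29, and the NLR genes with the highest levels, NLRC3 and NLRX1, 0.10 ± 0.35 and -0.59 ± 0.44. None of these passed.

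In the knockouts limma called 0 of 39 list genes for ATF7 and 0 of 39 for JDP2, beside 0.25 and 0.674 percent of all genes. At an unadjusted p under 0.05 there were 1 and 3, none of them positive. Both are smaller shares of the list than the 7.09 and 16.8 percent of all genes at that p. The highest-level genes of each list there were DPP9 (0.33 ± 0.30 for ATF7 and 0.38 ± 0.30 for JDP2) and PSTPIP1 (0.15 ± 0.35 and 0.07 ± 0.35) among inflammasome genes. They were NINJ1 (0.27 ± 0.35 and 0.27 ± 0.35) and CASP8 (-0.21 ± 0.34 and -0.40 ± 0.34) among gasdermin, caspase and cytokine genes. TAB1 (-0.38 ± 0.41 and 0.22 ± 0.41) and XIAP (-0.33 ± 0.39 and -0.61 ± 0.39) led the NOD list, and NLRC3 (-0.04 ± 0.46 and -0.53 ± 0.46) and NLRX1 (-0.12 ± 0.34 and 0.15 ± 0.34) the NLR list. DPP9 restrains NLRP1, and NINJ1 ruptures the membrane after gasdermin pores form, so each acts next to a member. Neither passed the test. AIM2 and IFI16, which rose in the knockdown, had 0.50 ± 0.77 and 0.26 ± 0.34 for ATF7, and 0.99 ± 0.77 and -0.24 ± 0.34 for JDP2.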

How the data were processed

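Libraries of THP1 RNA were made with an mRNA kit, per the labels' protocols. Counting with featureCounts on hg38 and normalization with DESeq2 are named, with no version, per the submitters' processing notes. No aligner, annotation or strand setting is given there or in the labels. The authors deposited 1 table of DESeq2-normalized gene values, a signal equal to the read count divided by a size factor per library, called normalized count here. The authors also deposited 3 comparison tables with a base mean signal, a log2 fold change, its standard error, a Wald score and p-values. The Wald score has the opposite sign to the log2 fold change in the deposited tables, and directions here follow the fold change. Of 21 libraries in the labels, 19 were analysed; 2 marked as low quality were not analysed here.

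Whole reads were recovered from the steps of the values, with 100 percent of 388037 values within 0.01 of a whole number. Values were tested as log2(normalized count + 1), a scale that understates changes of low genes, in genes with a mean of at least 10 over the libraries of the comparison. limma 3.58.1 (empirical Bayes with trend, R 4.3.3) gave p-values, Benjamini-Hochberg adjusted over all genes tested, and a gene was called under 0.05. The knockdown comparison used shRNA control and both hairpins, and the knockout comparisons used knockout control and all clones in 1 model; differences between arms were interaction contrasts over both arms. The functions were tested on simulated data. edgeR 4.0.16 and DESeq2 1.42.0 on recovered reads, equal-total scaling, a pseudocount of 10, no filter, the replicate number as a block, each library left out, 3 libraries left out together, and all 5 controls were alternatives. GC content came from GENCODE 29 transcripts (97.0 percent of genes had a value). Python 3.11.15 with pandas 2.3.3 and matplotlib 3.10.9 made the summaries and plots.

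The members and gene lists were chosen with earlier results of these data known. Named genes are the 10 members, list genes called in the knockdown or a knockout (at most 12 per comparison) or else the 2 of a list with the highest mean, and the 3 genes most correlated with each called member (mean at least 50). CASP4, IL1B, IL18 and RIPK2 were added after their values were seen.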

Additional observations from a re-analysis of the deposited data

Results flagged for a closer look

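For each tested member, groups of 4 to 6 libraries were examined for a library far from the others of its group. Among the 36 sets of 1 member in 1 group, 2 such libraries were found, a rate near the 1 in 20 that chance gives. GSDMD in the knockdown was 1855 in IRF2BP2 shRNA 1 replicate 3, far below the other 5 libraries. NOD1 in the ATF7 knockout was 980.1 in clone 2 replicate 1, below the other 3. NLRP3 differed between the IRF2BP2 knockdown and the JDP2 knockout, each against the control of its own arm, by 1.37 on the log2 scale (limma, adjusted p = 0.0322).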

How the results depend on the processing

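Over 9 comparisons, the number of members called stayed within 1.5 times the value reported in 91 of 102 alternatives that left out 1 library and in 56 of the 75 others. In the knockdown, reported at 2, it was 1, MEFV, with equal totals, edgeR or the replicate block (1.79, 0.973 and 1.64 percent of all genes called, 1.79 in the fit reported), 4 without the 3 libraries that stand apart (10.1 percent), 5 with all 5 controls (12.3 percent) and 0 with each gene's own variance, an alternative chosen after seeing the data. Leaving out 1 library gave 0 to 3. For ATF7, reported at 0, DESeq2 gave 1 (1.69 percent of genes against 0.25). For JDP2, reported at 0, DESeq2, all 5 controls and each gene's own variance gave 1 (4.06, 7.08 and 0.204 percent against 0.674). JDP2 minus ATF7, reported at 0, was 1 with DESeq2 (0.0681 percent against 0.0). Knockdown minus ATF7, reported at 0, was 2 with DESeq2, 3 with the replicate block, 2 without the 3 libraries (2.76, 2.31 and 2.82 percent against 0.337), 1 with own variance (0.13 percent) and 0 to 2 with 1 library left out. Knockdown minus JDP2, reported at 1, was 0 with equal totals, 4 with DESeq2, 4 with the replicate block, 2 without the 3 libraries (2.35, 7.62, 5.21 and 3.97 percent of genes against 1.76) and 0 to 1 with 1 library left out. The counts for hairpins and clones stayed at 0 in all alternatives run. The cause was not tested.

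Directions turned in members with small log2 differences. For ATF7, leaving out 1 library moved CASP1 (reported at -0.09) from -0.68 to 0.50, NLRC4 (0.34) from -0.32 to 0.99 and NOD1 (-0.01) from -0.063 to 0.063, and NOD1 was 0.0089 with edgeR. For JDP2, CASP1 (-0.10) went from -0.68 to 0.49, NLRC4 (-0.20) from -0.86 to 0.45, and NOD1 (0.07) was -0.16 with equal totals, where the median of all genes was -0.224. In the knockdown GSDMD (-0.18) was 0.011 without the 3 libraries, 0.039 with all 5 controls, and -0.37 to 0.12 with 1 library left out. Same-numbered libraries had deviations from group means correlated over 0.1 in 3 of 7 pairs in the knockdown arm and 10 of 20 in the knockout arm. Groups of the knockout arm hold 2 libraries, so its replicate 2 pairs repeat the correlations of its replicate 1 pairs. The 20 are thus not separate values. The numbers were not taken to pair libraries, and the replicate block is an alternative only. NAIP is limited by its low counts, with at most 4 reads in a library.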
